A study of Mus musculus with 6 samples.

Results

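The genes described here are 38 genes of DNA replication and cell division, followed in lung mesenchymal cells of mice with excess interferon-gamma and of wild-type mice. They were chosen by symbol: each had 1 row, and a row was taken where its gene symbol equalled a listed one, which gave 38 of the 29322 genes in the authors' deposited table. All 38 had an adjusted p per the authors' deposited table, as did 20212 genes in all. They were grouped by hand, 18 under S phase and 20 under G2 and mitosis; Mybl2, an E2F target whose product acts later, in G2, was counted under S phase.

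RNA-seq was done on bulk RNA of 6 libraries, 3 labelled Yeti and 3 labelled as Yeti controls. Yeti+/- mice carry 1 copy of an Ifng allele labelled gain-of-function, Ifng being the gene that encodes interferon-gamma, and the controls were wild-type; all were adults, and the labels give tamoxifen injection for both groups without naming an allele it acts on. Cells were isolated from lung by flow cytometry as lacking CD45 (leukocytes), CD31 (endothelium) and Epcam (epithelium), and DAPI removed dead cells. The RNA protocol names cultured cells while the design names sorting alone, so whether the levels given here are those of cells taken directly from the lung is not known. The number of animals behind a library is not given, and nothing says that libraries came from separate animals, so that p-values measure the spread between these libraries, which may be technical. The study compares lung mesenchyme with and without excess interferon-gamma, and the question taken up here is whether the genes of cell division differed between them.

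Cell division genes are switched on in waves. Before S phase, E cyclins with their kinase release E2F transcription factors, which drive genes of origin licensing, the replicative MCM helicase and nucleotide synthesis. In G2 the MuvB complex, together with B-Myb (Mybl2) and FoxM1, drives genes of the mitotic kinases, the spindle and the kinetochore, through a promoter element called CHR and, nearby, CCAAT boxes bound by NF-Y. In resting cells the related DREAM complex keeps both groups low. Most mesenchymal cells of the adult lung are at rest, and interferon-gamma slows division in many cultured cell types.

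The authors' deposited table holds for each gene a mean, a fold change and its standard error (SE), without values for single libraries, so the levels given below for each group are fitted from the mean and the fold change, and no value of a single library can be shown. Libraries held 26646632 normalized counts on average per the authors' deposited table. Of 22 markers of lung mesenchyme, 0 passed the test in either direction per the authors' deposited table (0 at an unadjusted p under 0.05). Of all tested genes 2.84% passed and 9.28% had an unadjusted p under 0.05. For 22 genes a count of 0 is near the share that passed, so it does not show that the mesenchyme was unchanged. The summed fitted level of the 22 markers was 790059 normalized counts in the controls and 848574 in Yeti. All 12 genes of a short interferon-gamma response list rose in Yeti per the authors' deposited table, with a median log2 fold change of 2.50. Of all tested genes, 1.85% passed as higher in Yeti. This list was chosen with earlier results of these data known, so its count is a description and not a test. Ifng itself was fitted at 14.9 normalized counts in the controls and 24.4 in Yeti (adjusted p = 0.919) per the authors' deposited table (DESeq2 Wald test). Bulk RNA does not tell fewer dividing cells from less RNA per dividing cell.

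Promoters of many members carry known elements of these waves, while none was found for Tyms and Mybl2. A few promoters are printed here because they show the letters of these elements beside those of an interferon-induced promoter. Windows from 250 bases before to 50 after the annotated start were taken from RefSeq on GRCm38.p6, with 32 windows for 30 members; Aurkb, Ccna2, Ccne2, Foxm1, Gins2, Kif20a, Mcm4 and Tpx2 had no match. The 250 bases before the start are printed 5′ to 3′ on the strand of the gene. In Ccnb1 (chr13:100786487-100786736, minus strand) and Mki67 (chr7:135716380-135716629, minus strand), capitals mark CCAAT boxes and CHR elements on either strand. In Mcm6 (chr1:128359706-128359955, minus strand) and Cdc6 (chr11:98907901-98908150, plus strand), capitals mark E2F elements. The start is that of RefSeq: in GENCODE M21 the Cdc6 gene begins at 98907801, so all its printed bases lie inside it. Part of the printed Ccnb1 bases lie inside its GENCODE gene as well. In Igtp (chr11:58199306-58199555, plus strand), an interferon-induced GTPase gene shown for contrast, capitals mark a GAS element, an interferon-gamma response element, followed by an ISRE, the site of interferon regulatory factors. Other elements stay in lower case: Igtp also holds CHR letters, with their first base at -94, and Mcm6 also holds CCAAT letters.
Ccnb1: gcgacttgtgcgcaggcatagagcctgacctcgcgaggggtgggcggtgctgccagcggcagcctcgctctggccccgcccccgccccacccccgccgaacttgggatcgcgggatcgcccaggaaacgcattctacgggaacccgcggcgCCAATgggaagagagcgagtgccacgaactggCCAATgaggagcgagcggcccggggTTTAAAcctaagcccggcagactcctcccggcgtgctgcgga
Mki67: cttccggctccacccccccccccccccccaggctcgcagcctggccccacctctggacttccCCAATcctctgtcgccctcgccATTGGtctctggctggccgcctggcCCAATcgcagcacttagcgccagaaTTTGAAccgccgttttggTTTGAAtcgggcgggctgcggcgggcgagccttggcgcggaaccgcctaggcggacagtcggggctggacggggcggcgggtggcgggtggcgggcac
Mcm6: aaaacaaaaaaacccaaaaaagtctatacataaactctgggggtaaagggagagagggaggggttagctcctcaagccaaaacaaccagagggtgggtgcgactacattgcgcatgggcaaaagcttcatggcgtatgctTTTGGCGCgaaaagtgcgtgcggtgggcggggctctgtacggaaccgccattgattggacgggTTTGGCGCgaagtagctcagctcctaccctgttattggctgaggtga
Cdc6: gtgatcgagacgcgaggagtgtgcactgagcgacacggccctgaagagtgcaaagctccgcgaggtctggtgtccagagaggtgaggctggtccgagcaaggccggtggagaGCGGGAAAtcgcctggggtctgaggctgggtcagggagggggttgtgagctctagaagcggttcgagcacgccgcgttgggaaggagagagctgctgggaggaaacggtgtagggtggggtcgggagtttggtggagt
Igtp: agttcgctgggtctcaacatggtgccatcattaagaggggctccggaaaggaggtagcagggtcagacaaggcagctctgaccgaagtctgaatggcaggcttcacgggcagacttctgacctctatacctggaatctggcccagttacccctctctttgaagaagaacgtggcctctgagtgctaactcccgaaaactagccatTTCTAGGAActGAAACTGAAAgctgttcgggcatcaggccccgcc

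The first bases of the CCAAT boxes in Ccnb1 lie at -99 and -67 from the start and that of its CHR element at -42. In Mki67, which encodes the proliferation antigen Ki-67, both CHR elements lie within the window, at -116 and -98, after 3 CCAAT boxes. A CHR element (TTTGAA or TTTAAA, either strand) was found in 14 of the 15 windows of G2 and mitosis members, in 6 of the 17 of S phase members and in 27.6% of the 32851 windows of all genes. CCAAT was found in 14 of 15 windows of G2 and mitosis members, in 11 of 17 of S phase members and in 37.4% of all. An E2F element (TTTGGCGC or TTTCCCGC, either strand) was found in 6 of 17 windows of S phase members, in 0 of 15 of G2 and mitosis members and in 1.56% of all. Of the 12 windows of the interferon-gamma response list, 4 held CHR, 9 held CCAAT and 1 held E2F letters. CCAAT was thus found in 75% of the windows there and in 64.7% of those of S phase members. The 12 windows belong to 10 genes, and those of H2-K1 overlap each other. These counts describe the letters in the windows and were not tested.

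The GAS and ISRE letters were also searched. TTCNNNGAA was found in 1 of the 32 member windows, that of Mcm5, in 8.30% of all windows and in 2 of the 12 windows of the interferon-gamma response list. The ISRE letters, a pair of GAAA runs 2 bases apart, were found in 1 of 32, that of Bub1b, or 3.12%, near the 3.44% of all windows, and in 6 of the 12 windows of the interferon-gamma response list. A match is not a bound site, and the absence of these letters from a window says nothing of the factors.

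**Figure D1:**
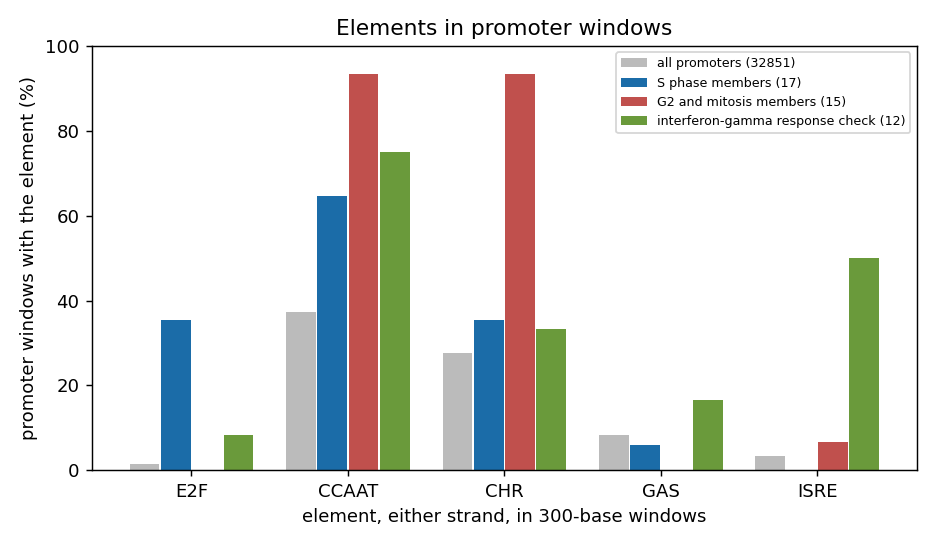
Share of promoter windows, in percent, that hold each element on either strand, for all promoters, S phase members, G2 and mitosis members and the interferon-gamma response list (number of windows in brackets). The bars for CHR and CCAAT reach 93.3% in G2 and mitosis members, and the E2F bar is at 35.3% in S phase members against 1.56% in all promoters.

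None of the cell division genes passed the test between Yeti and wild-type. An adjusted p under 0.05 was found for 0 of 38 per the authors' deposited table (DESeq2 Wald test, Benjamini-Hochberg), while 2.84% of all tested genes passed, 1.85% higher and 0.994% lower in Yeti. At an unadjusted p under 0.05 the count was also 0 of 38, against 9.28% of all tested genes per the authors' deposited table. The lowest unadjusted p was 0.108 and the lowest adjusted p 0.752, both of Ccne2, per the authors' deposited table. Log2 fold changes ran from -0.64 to 0.33 with a median of -0.17 per the authors' deposited table, where the median of all tested genes was within 0.001 of 0.

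The signs of the fold changes were counted for each stage. Among G2 and mitosis genes, 18 of 20 were below 0 per the authors' deposited table, with a median of -0.20. Among S phase genes, 10 of 18 were below 0, with a median of -0.05 per the authors' deposited table. Of all tested genes 50.2% were below 0 per the authors' deposited table. Members share libraries, so that their signs are not independent of each other, and the difference between the 2 stages was not tested.

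**Figure D2:**
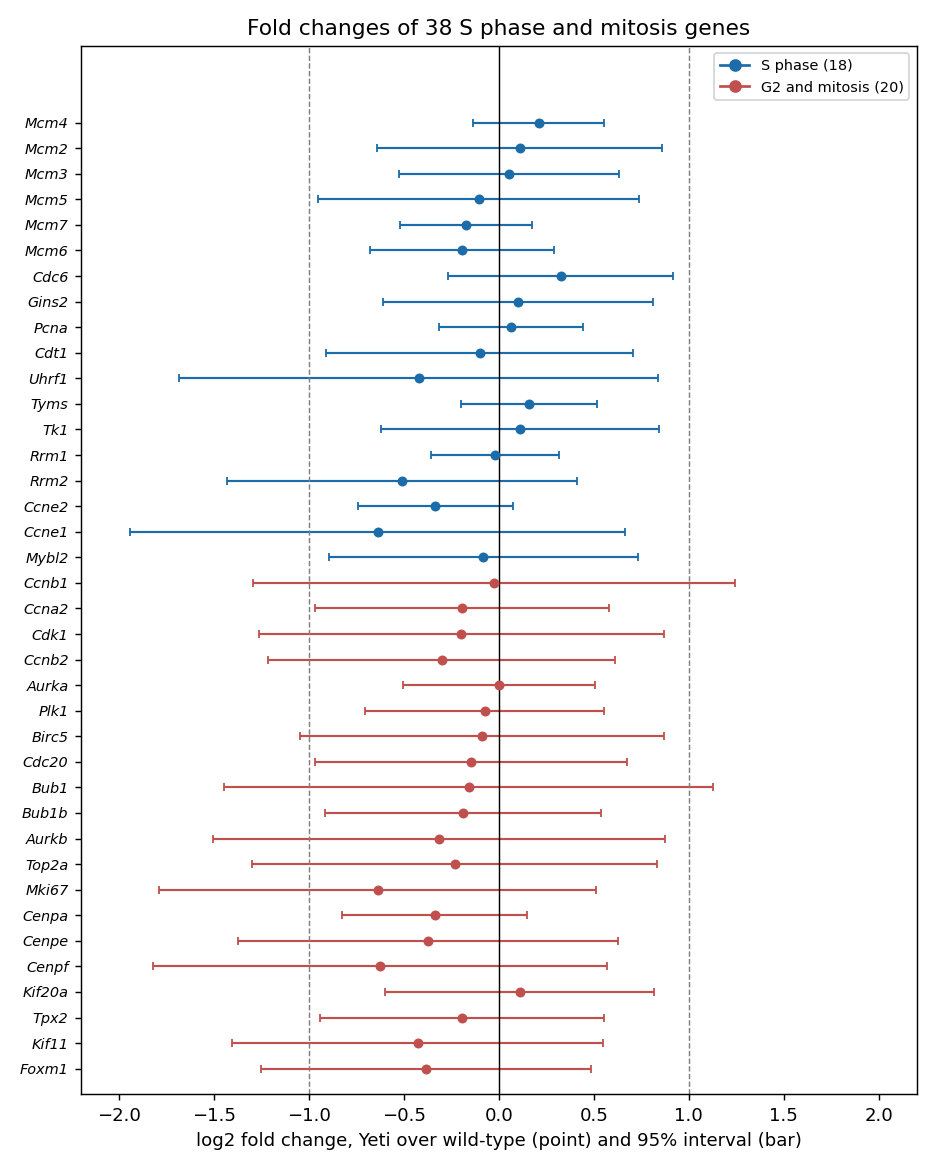
Log2 fold change of each of the 38 genes, Yeti over wild-type (point), with its 95% interval (bar), S phase genes in blue and G2 and mitosis genes in red; dashed lines mark 2-fold in either direction. Every bar spans 0, and 18 of the 20 red points lie below 0.

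The MCM genes, which encode the 6 subunits of the replicative helicase, lay close to 0. Mcm4 (ENSMUSG00000022673, GRCm38 chromosome 16, 15623897 to 15637400) was fitted at 1025 normalized counts in the controls and 1186 in Yeti, a log2 fold change of 0.21 ± 0.18 (SE), adjusted p = 0.959 per the authors' deposited table. Mcm7 had fitted levels of 885 and 785, a log2 fold change of -0.17 ± 0.18, per the authors' deposited table. The fitted level was higher in Yeti for Mcm4 and lower for Mcm7, in each case by about 1 SE, and both were among the most precisely measured members.

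Mcm6, the most abundant subunit by count, stood at 1182 and 1033 (-0.19 ± 0.25) per the authors' deposited table. Mcm2, Mcm3 and Mcm5 stood at 0.11 ± 0.38, 0.05 ± 0.30 and -0.11 ± 0.43 on the log2 scale per the authors' deposited table. As a group, 3 MCM genes were above 0 and 3 below, and their summed fitted level was 4559 normalized counts in the controls and 4496 in Yeti per the authors' deposited table. The 95% intervals of all 6 lay within 2-fold in either direction.

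Factors that load the helicase and work at the fork showed no called change either. Cdc6, which with Cdt1 loads MCM onto origins, had the highest fold change of all members: fitted levels of 119 normalized counts in the controls and 149 in Yeti, a log2 fold change of 0.33 ± 0.30, adjusted p = 0.992 per the authors' deposited table. Cdt1 stood at -0.10 ± 0.41 per the authors' deposited table. Pcna, the sliding clamp of the polymerases and the most abundant member (ENSMUSG00000027342, GRCm38 chromosome 2, 132249162 to 132253314), had fitted levels of 1480 and 1545, a log2 fold change of 0.06 ± 0.19 per the authors' deposited table. Its interval, from -0.32 to 0.44, was one of the narrowest.

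Uhrf1, which brings the maintenance DNA methyltransferase to new strands, stood at 277 normalized counts in the controls and 207 in Yeti (-0.42 ± 0.64) per the authors' deposited table. Gins2, a subunit of the helicase cofactor GINS, stood at 0.10 ± 0.36 per the authors' deposited table. In GENCODE M21, 67.3% of the exon bases of Gins2 overlap Gse1 on the opposite strand, and Gse1 had a mean of 2040 normalized counts against 43.8 for Gins2 per the authors' deposited table. No source used here gives the strand setting of the counting, so reads of these neighbours may not be told apart. Kif20a shares 29.3% of its exon bases with Cdc23 in the same way, and in all 8 of the 38 members have such an overlap.

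The genes of nucleotide synthesis lay on both sides of 0. Ribonucleotide reductase supplies deoxynucleotides, and its small subunit is the one that limits it to dividing cells. Rrm1, the large subunit, stood at 827 normalized counts in the controls and 814 in Yeti, a log2 fold change of -0.02 ± 0.17 per the authors' deposited table. Rrm2, the small subunit, stood at 263 and 185, a log2 fold change of -0.51 ± 0.47 (adjusted p = 0.992) per the authors' deposited table. Tyms, thymidylate synthase, and Tk1, thymidine kinase, stood at 0.16 ± 0.18 and 0.11 ± 0.37 per the authors' deposited table. The interval of Rrm2, from -1.43 to 0.41, covers that of Rrm1, from -0.36 to 0.32.

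The E cyclins had the member with the smallest p and one of the lowest fold changes. Ccne2 (ENSMUSG00000028212, GRCm38 chromosome 4, 11191351 to 11204779) was fitted at 135 normalized counts in the controls and 107 in Yeti, a log2 fold change of -0.33 ± 0.21, unadjusted p = 0.108 and adjusted p = 0.752 per the authors' deposited table. In GENCODE M21, 17.4% of its exon bases overlap Ints8 on the opposite strand. Ccne1 stood at 89.1 and 57.3 normalized counts, a log2 fold change of -0.64 ± 0.67 per the authors' deposited table, with an SE as large as the change.

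The cyclins that carry cells through G2 into mitosis, and their kinase, lay slightly below 0. Ccnb2, the most abundant of them, stood at 133 normalized counts in the controls and 108 in Yeti (-0.30 ± 0.47) per the authors' deposited table. Ccna2 stood at -0.19 ± 0.40, Cdk1, the kinase that starts mitosis, at -0.20 ± 0.54 and Ccnb1 at -0.03 ± 0.65 per the authors' deposited table. The interval of Ccnb1 reached from -1.30 to 1.25, so that neither a 2-fold rise nor a 2-fold fall lay outside it.

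Kinases and checkpoint genes of mitosis lay between -0.32 and 0.00 on the log2 scale. Bub1b, a spindle checkpoint protein gene and the most abundant of this group, stood at 206 normalized counts in the controls and 181 in Yeti (-0.19 ± 0.37) per the authors' deposited table. The checkpoint kinase gene Bub1 stood at -0.16 ± 0.66, and Cdc20, which activates the anaphase-promoting complex, at -0.15 ± 0.42 per the authors' deposited table. Aurka, a kinase of the spindle poles, stood at 97.8 and 97.9 normalized counts, and Plk1, the polo kinase, at 79.2 and 75.2 per the authors' deposited table. Both had nearly equal fitted levels in the 2 groups. Aurkb, the kinase of the chromosomal passenger complex, and Birc5 (survivin), a subunit of the same complex, stood at -0.32 ± 0.61 and -0.09 ± 0.49 per the authors' deposited table.

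The genes of chromosome structure and the centromere hold the lowest value of all members, that of Mki67. Mki67 (ENSMUSG00000031004, GRCm38 chromosome 7, 135689784 to 135716361) stood at 1029 normalized counts in the controls and 661 in Yeti, a log2 fold change of -0.64 ± 0.59, unadjusted p = 0.277 and adjusted p = 0.992 per the authors' deposited table. Top2a, the topoisomerase that untangles sister chromatids, stood at 502 and 427 (-0.23 ± 0.55) per the authors' deposited table. Cenpf, a kinetochore protein gene, stood at 79.4 and 51.4, a log2 fold change of -0.63 ± 0.61 per the authors' deposited table. Each of these differences was about 1 SE or less.

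Cenpa, the centromeric histone, was measured more precisely: 434 normalized counts in the controls and 344 in Yeti, a log2 fold change of -0.34 ± 0.25, unadjusted p = 0.173 and adjusted p = 0.884 per the authors' deposited table. Cenpe, a kinetochore motor, stood at -0.37 ± 0.51 per the authors' deposited table. Among spindle genes, the motor Kif11, which pushes the poles apart, stood at 183 and 136 (-0.43 ± 0.50), the spindle assembly factor Tpx2 at -0.19 ± 0.38 and Kif20a, a motor of cytokinesis, at 0.11 ± 0.36 per the authors' deposited table. Kif20a and Aurka were the 2 G2 and mitosis genes not below 0.

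The transcription factor genes of the late wave were both below 0 without passing the test. Foxm1 stood at 165 normalized counts in the controls and 126 in Yeti (-0.38 ± 0.44) per the authors' deposited table. Mybl2, which is itself an E2F target, stood at 99.6 and 94.1 (-0.08 ± 0.42) per the authors' deposited table.

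**Figure D3:**
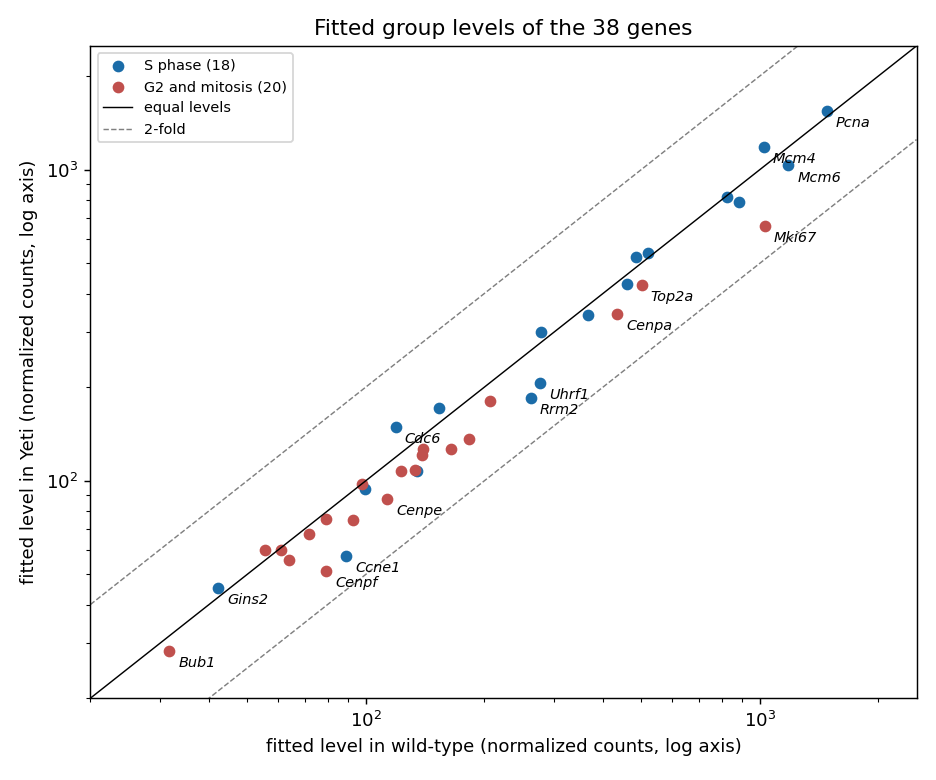
Fitted level of each gene in wild-type (x axis) and in Yeti (y axis), in normalized counts on log axes, with S phase genes in blue and G2 and mitosis genes in red. Points lie between the dashed lines of 2-fold, with Pcna highest at 1480 and 1545 and Mki67 at 1029 and 661.

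Summed over all 38 genes, fitted levels came to 12492 normalized counts in the controls and 11511 in Yeti. S phase genes made up 8690 and 8513 of these, and G2 and mitosis genes 3802 and 2998. The log2 ratio of the summed levels of G2 and mitosis genes was -0.34, and without Mki67, the most abundant of them, -0.25. For S phase genes it was -0.03. No error can be given for these sums, since errors of members that share libraries do not add up independently.

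Levels were also set side by side per kilobase of exon, with GENCODE M21 lengths. The median was 73.5 normalized counts per kilobase in S phase genes, ranging from 10.7 for Gins2 to 630 for Pcna, and 28.1 in G2 and mitosis genes, ranging from 4.24 to 84.0, so that the stages overlap. Pcna had the highest mean, 630 normalized counts per kilobase, followed by Mcm4 (308), Mcm6 (237), Mcm7 (189) and Mcm3 (142). The highest G2 and mitosis gene was Mki67, eighth in that order at 84.0 normalized counts per kilobase, next to Rrm2 (80.7) and Ccnb2 (78.9). Cenpf was lowest at 4.24 and Bub1 next at 6.91. These are means over all libraries of both groups, and single positions in the order have no error of their own here.

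How large a difference could have been called depended on the gene. The smallest Wald statistic among called genes had a size of 3.19, and at that size the SE of the members sets the smallest fold change that would pass. It was 1.46-fold for the most precise member, Rrm1, 2.44-fold at the median and 4.35-fold for Ccne1. The 95% interval lay within 2-fold in either direction for 23 of 38 members, of which 15 were among the 18 S phase genes and 8 among the 20 G2 and mitosis genes; this held for 61.0% of all tested genes. A rise of 2-fold lay outside the interval for 36 of 38 members, Bub1 and Ccnb1 being the exceptions, and a fall of 2-fold for 23.

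The members varied between libraries more than most genes of like level. A between-library coefficient of variation (CV) was derived for each gene from its SE, as the part not due to counting noise; it pools both groups and follows the dispersion that DESeq2 had moderated towards its trend. The median was 39.2% in G2 and mitosis genes and 25.8% in S phase genes. For each member the 250 tested genes next below and the 250 next above in mean were taken for comparison, and their median CV was itself 22.4% at the median of G2 and mitosis genes and 15.8% at that of S phase genes. A CV above the median of its like-level genes was found for 19 of 20 G2 and mitosis genes and 16 of 18 S phase genes. Such a spread was not particular to cell division genes. Of the lung mesenchyme markers 21 of 22 also lay above, as did 18 of 18 macrophage and monocyte markers. Among the regulators of cell cycle transcription described below, 11 of 22 did. These counts are a description and were not tested.

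Mki67 had a CV of 49.7%, at the 98.6th percentile of its like-level genes, and Top2a one of 46.1%, at the 95.2nd. Uhrf1 (54.2%) and Ccne1 (55.2%) were the most variable S phase genes. At the other end Tyms (13.3%), Rrm1 (14.2%), Mcm7 (14.6%), Mcm4 (14.6%), Ccne2 (15.1%) and Pcna (16.2%) varied little, and Aurka (19.5%) was the least variable gene of G2 and mitosis. A CV above 40% was found for 11 members, 9 of them G2 and mitosis genes, and all 11 had a fold change below 0 per the authors' deposited table. A CV below 20% was found for 7, of which 3 were below 0. Across the 38 genes, which share the same 6 libraries, the log2 fold change and the CV had a Spearman rho of -0.60; within S phase genes it was -0.48 and within G2 and mitosis genes -0.36.

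**Figure D4:**
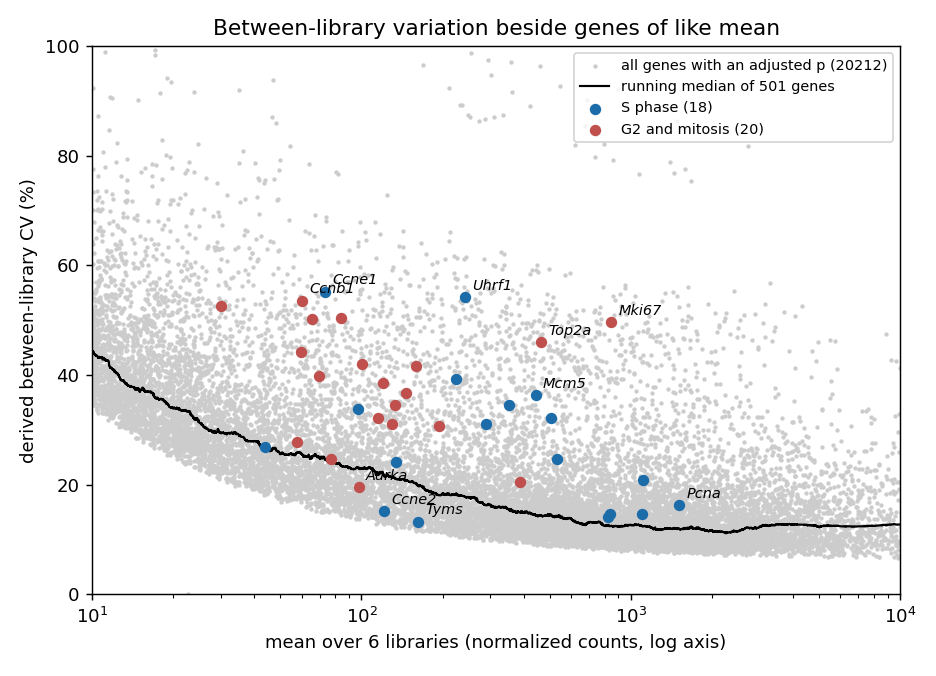
Derived between-library CV in percent (y axis) against the mean over 6 libraries in normalized counts (x axis, log), with S phase genes in blue, G2 and mitosis genes in red, all tested genes in grey and their running median in black. Most coloured points lie above the black line, Mki67 at 49.7% and Top2a at 46.1% far above it, and Tyms, Ccne2 and Aurka below it.

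Of the other genes of the same pathways, 2 passed. Of 50 further genes of replication and its checkpoint, 0 passed in either direction per the authors' deposited table (at an unadjusted p under 0.05, 1 lower and 0 higher), and their median log2 fold change was -0.04. The nearest was Prim1, the catalytic subunit of primase, at -0.33 ± 0.14, unadjusted p = 0.0185 and adjusted p = 0.300 per the authors' deposited table. Cdc7, the kinase that fires origins, stood at -0.36 ± 0.20 per the authors' deposited table. The median derived CV of these 50 genes was 16.8%, where that of their like-level genes was 18.2%, and 23 of the 50 lay above the median of their like-level genes, so that the larger spread of the S phase members was not seen in this list. For the 63 further mitosis genes the medians were 31.4% and 25.4%, and 51 lay above.

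Of 63 further genes of mitosis, 1 fell and 0 rose per the authors' deposited table, with a median of -0.13. It was Cdc25b, a phosphatase that activates Cdk1 at the entry into mitosis (ENSMUSG00000027330, GRCm38 chromosome 2, 131186949 to 131198497). Its fitted level was 1897 normalized counts in the controls and 901 in Yeti, a log2 fold change of -1.07 ± 0.24 (adjusted p = 7.77e-04) per the authors' deposited table (DESeq2 Wald test). Its substrate Cdk1 stood at -0.20 ± 0.54 per the authors' deposited table.

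Of 22 regulators of cell cycle transcription, 1 rose and 0 fell per the authors' deposited table, with a median of -0.01. It was Rbl1, which encodes p107, a pocket protein that binds E2F and is part of DREAM (ENSMUSG00000027641, chromosome 2, 157145893 to 157204534). Its fitted level was 328 normalized counts in the controls and 518 in Yeti, a log2 fold change of 0.66 ± 0.19 (adjusted p = 0.0176) per the authors' deposited table (DESeq2 Wald test). Adjusted by the stricter method of Benjamini and Yekutieli, its adjusted p was 0.185 and it did not pass; over the alternatives tried it lay between 0.0136 and 0.185. Together 2 of these 135 genes passed, beside 2.84% of all tested genes, per the authors' deposited table.

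Some markers of cells other than mesenchyme were called as well. Among 17 endothelial markers, 9 fell and 1 rose per the authors' deposited table, with a median of -1.20 and a summed fitted level of 10297 normalized counts in the controls and 6303 in Yeti. Of 12 B and plasma cell markers, 5 fell and 0 rose per the authors' deposited table, with a median of -1.22 and a summed level of 132052 and 45575. The most abundant of these 12 had a mean of 49102 normalized counts beside a list median of 1719, so it weighs heavily in the sum. Both lists were lower in Yeti at the median. Of 16 tested T and NK markers 0 passed (at an unadjusted p under 0.05, 2 higher and 5 lower). Their median was -0.77 per the authors' deposited table, and the summed level, taken over all 18 listed T and NK markers, was 5605 and 3278. Of 18 macrophage and monocyte markers 0 passed (at an unadjusted p under 0.05, 6 higher and 0 lower); the median was 0.62 per the authors' deposited table and the summed level 18016 and 27490.

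Of 15 tested epithelial markers 0 passed (at an unadjusted p under 0.05, 0 higher and 3 lower); the median was -0.07 per the authors' deposited table, and of 6 tested erythroid markers 0 passed (at an unadjusted p under 0.05, 1 higher and 0 lower); the median was 1.08. None of the markers with a value was at 0 in the mean. The markers with the smallest p of each list were Mmrn1 (-2.91 ± 0.26), Tnfrsf17 (-2.54 ± 0.53), Cd4 (-1.59 ± 0.56), Cd14 (1.49 ± 0.48), Scgb3a2 (-1.92 ± 0.73) and Klf1 (1.53 ± 0.68) per the authors' deposited table. The part of these cells in the levels of the cell division genes was not tested.

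**Figure D5:**
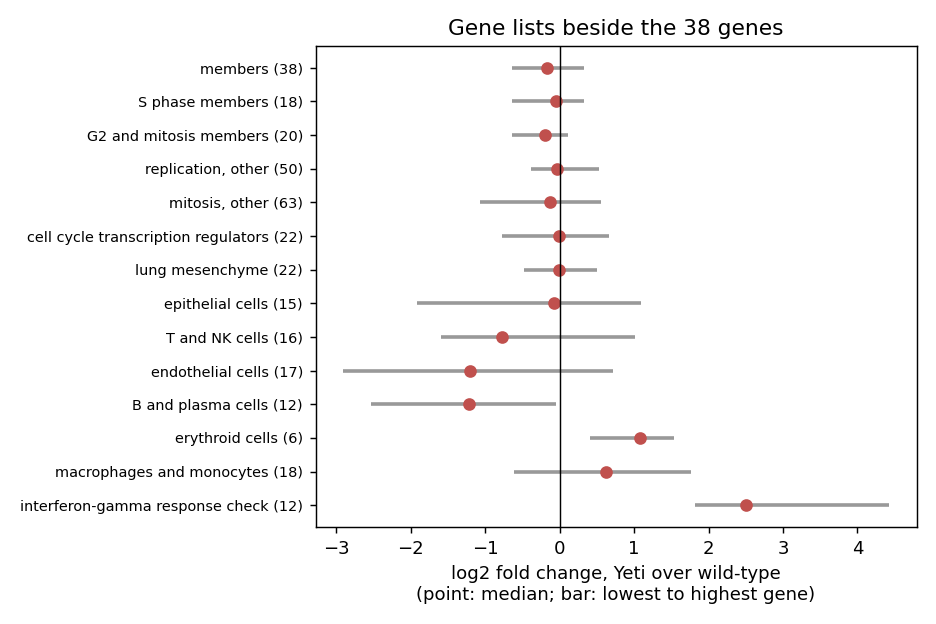
Median log2 fold change, Yeti over wild-type, of each gene list (point) with its lowest and highest gene (bar); the number of tested genes is in brackets. The cell division genes lie near 0, with medians of -0.05 for S phase and -0.20 for G2 and mitosis, the interferon-gamma response list at 2.50 and the B and plasma cell list at -1.22.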

How the data were processed

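FastQC, STAR and DESeq, without versions, and the builds GRCm38 and mm10, names of the same assembly, are given per the submitters' processing notes; no source used here names the read counter or its strand setting. The authors' deposited table, per the file headers from DESeq2, holds a mean signal (counts divided by size factors, averaged over 6 libraries), a log2 fold change with its SE, the Wald statistic (a score), a p-value and an adjusted p-value. Benjamini-Hochberg values recomputed over the same 20212 genes differed by at most 3.91e-06 from the deposited ones.

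From these, with Python 3.11.15, fitted group levels (equal groups of 3), 95% intervals (normal, from the SE), the derived CV, levels per kilobase and promoter elements were computed; the calling and CV steps were tested on simulated data. The threshold was an adjusted p under 0.05 over all genes. Of the 32 promoter windows, 27 ended in bases found near a GENCODE transcript start of that gene. Those of Aurka, Kif11, Mcm5, Mcm6 and Mybl2 did not.

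The members and lists were chosen with earlier results of these data known. Fitted levels, fold change and SE are given for the 8 members with the smallest p and the most abundant of each role. The same holds for the 2 highest and 2 lowest fold changes, and p-values are printed for some of these members. Of other lists, every gene that passed was named, otherwise the nearest 2, and 1 per marker list of other cells. Sgo2a and Siglecf were not analysed here.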

Additional observations from a re-analysis of the deposited data

How the results depend on the processing

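The count of cell division genes that passed was 0 under the 6 other adjustments, filters and thresholds tried, of 36 genes with a mean of at least 50 and of 38 otherwise (adjustment over all genes with a p-value, means of at least 10 or 50, Benjamini-Yekutieli, a threshold of 0.1, recentring), the lowest adjusted p among them being 0.679. Of the other pathway genes 2 passed, and 1 under Benjamini-Yekutieli, Cdc25b, since Rbl1 had 0.185 there. The median of the 38 lay between -0.19 and -0.16 over the settings tried, and that of S phase genes between -0.08 and -0.02. That of G2 and mitosis genes lay between -0.27 and -0.19. Means weighted by 1 over the squared SE were -0.07 for the 38, -0.01 for S phase and -0.20 for G2 and mitosis genes. The log2 ratios of summed levels were -0.12, -0.03 and -0.34 in the same order. Leaving out the members that overlap a gene on the opposite strand and leaving out Mki67 from the sum were chosen after seeing the data. Leaving out a library could not be done, as the table holds no values per library. No paired analysis was possible because the columns carry no replicate. The rarest members were Bub1, at a mean of 30.1 normalized counts, and Gins2, at 43.8; how far depth limits them was not tested.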

Other observations

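Regulators that act before S phase, chosen with their values known, differed among themselves. Ccnd1, the D-type cyclin that growth signals induce, was fitted at 231 normalized counts in the controls and 603 in Yeti, a log2 fold change of 1.38 ± 0.24 (adjusted p = 1.88e-06) per the authors' deposited table (DESeq2 Wald test). Its relatives Ccnd2 and Ccnd3 stood at 0.32 ± 0.22 and 0.16 ± 0.19 per the authors' deposited table. Of the inhibitors, Cdkn1a (p21) stood at 0.65 ± 0.31 with an unadjusted p of 0.0382 and an adjusted p of 0.464, and Cdkn1b (p27) at 0.11 ± 0.14 per the authors' deposited table. The inhibitors Cdkn1c and Cdkn2c lay below 0, at -0.11 ± 0.20 and -0.13 ± 0.41 per the authors' deposited table. Ccnd1 passed the test and 0 of the 38 genes of the later stages did, beside 2.84% of all tested genes. For 38 genes a count of 0 is near that share, and the median member needed a 2.44-fold change to pass. Whether Ccnd1 and the 38 genes differ from each other was not tested.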
